A study of Mus musculus with 31 samples.

Results

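The genes described here are 35 markers of blood and lymphatic endothelium, the cell layer that lines vessels, measured in fetal mouse gonads. They were taken from a fixed list of names. A gene was measured by the probe set whose only platform symbol was its name, and, where several probe sets qualified, by the one with the highest mean signal over all 31 arrays. All 35 had a probe set, of 18193 genes that the platform annotation named. The list holds 13 surface and junction genes shared by most endothelium, 4 receptors for VEGF and angiopoietin, 3 transcription factors, 7 arterial genes, 3 venous and capillary genes, 4 sinusoidal and lymphatic genes, and the ligand Apln.

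As background, endothelial cells take on arterial, venous, capillary, sinusoidal or lymphatic identity, and VEGF together with Notch signalling favours the arterial one. In the XY gonad, endothelial cells that migrate in from the neighbouring mesonephros build an artery under the coelomic surface, a hallmark of testis formation that the XX gonad lacks. In the XX gonad, WNT signalling through beta-catenin (Ctnnb1) is known to hold back that vessel, while SOX9 is the transcription factor that drives Sertoli cells in the XY gonad.

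Expression was measured on one-colour arrays in gonads of XX and XY embryos at E14.5. The 4 genotypes all carried the transgene Sf1-cre+/Tg. Control gonads (Ctr) had 1 floxed allele of each gene, Ctnnb1+/f and Sox9+/f. The Ctnnb1KO gonads were Ctnnb1f/f and Sox9+/f, the Sox9KO gonads were Ctnnb1+/f and Sox9f/f, and the double knockout (DKO) gonads were Ctnnb1f/f and Sox9f/f. The controls were therefore not wild type, since they too carried the Cre and a floxed allele of both genes. Sf1 is a gene of the gonad's somatic cells, and the labels name no deletion in endothelium itself. Each sample was 1 pair of gonads freed of the mesonephros, and its RNA was amplified before labelling. There were 4 arrays in every group except XY DKO, which had 3.

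The stretches of genome just upstream of 3 members are shown because these genes stood for different vessel types and moved in different ways between the groups: Gja5 (connexin 40, a gap junction protein of arteries), Emcn (endomucin, a sialomucin of veins and capillaries) and Stab2 (stabilin 2, a scavenger receptor of sinusoids). They are from RefSeq on GRCm38.p6, written 5′ to 3′ on the gene's strand, and capitals mark matches to GGAAG (the core of an ETS factor site) or ACAAT (the core of a SOX factor site) on either strand. The Gja5 stretch is chr3:97032152-97032401 on the plus strand, the Emcn stretch is chr3:137340828-137341061 on the plus strand, and the Stab2 stretch is chr10:87008039-87008192 on the minus strand.
Gja5: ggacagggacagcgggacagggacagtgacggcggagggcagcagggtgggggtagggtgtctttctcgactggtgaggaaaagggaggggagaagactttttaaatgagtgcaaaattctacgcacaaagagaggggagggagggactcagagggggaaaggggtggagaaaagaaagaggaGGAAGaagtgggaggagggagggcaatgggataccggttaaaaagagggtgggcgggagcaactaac
Emcn: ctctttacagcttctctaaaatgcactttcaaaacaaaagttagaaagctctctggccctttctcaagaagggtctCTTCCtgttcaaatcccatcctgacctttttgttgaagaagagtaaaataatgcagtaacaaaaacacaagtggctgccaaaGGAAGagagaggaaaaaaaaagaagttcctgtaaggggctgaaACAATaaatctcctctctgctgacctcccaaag
Stab2: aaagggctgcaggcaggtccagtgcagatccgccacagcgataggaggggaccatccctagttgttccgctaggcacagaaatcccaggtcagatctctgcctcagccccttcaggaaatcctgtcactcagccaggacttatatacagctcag
The Gja5 stretch holds 1 ETS core, which starts 67 bases before the RefSeq start. Emcn has 2 ETS cores, starting 174 and 92 bases before the start site of its promoter entry, and 1 SOX core at 49 bases. That start site lies inside the annotated gene, and the stretch shown ends where the gene begins. The cores are therefore nearer to the end of the printed stretch than these distances. The 154 bases shown for Stab2 hold no match. Of the 35 members, 22 had an entry in the promoter table, with 26 start sites, and 13 had none, Vwf among them. In the 250 bases upstream of those 26 starts, GGAAG was found on either strand in 21, against 64.1% of all 32851 promoters of that length. ACAAT, also read on both strands, was found in 7, against 27.7% of all promoters. The core of the Notch effector RBPJ, written TGGGAA and searched in the same way, was in 4 (21.6% of all). A GATA core, written AGATAA, was in 1 (9.99% of all). GGAAG and TGGGAA can share the letters GGAA. A match is a description of the letters and not evidence of binding.

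The arrays were comparable in scale, with a median signal per array between 120.6 and 168.8. Sox9, the targeted gene, had a signal of 929.1 ± 94.5 (SD, n = 4) in XY Ctr, 747.1 ± 113.9 in XY Ctnnb1KO, 23 ± 16.7 in XY Sox9KO and 26 ± 15 (n = 3) in XY DKO. In XX gonads its signal was low throughout, at 6.3 to 62.5 on the 8 arrays of XX Sox9KO and XX DKO and at 82.8 to 174.3 on 7 of the 8 arrays of XX Ctr and XX Ctnnb1KO. The library labelled XX Ctr replicate 2, at 11.7, lay inside the range of the knockout arrays. A second library went against its label by Xist, the RNA of the inactive X. The library labelled XX Ctnnb1KO replicate 4 had an Xist signal of 51.1, where the other 15 XX arrays lay between 7489.8 and 9431.7 and the XY arrays between 42.3 and 103.5, while its signal for the Y-linked Eif2s3y was 29.6, within the range of 2 to 30.3 of the other XX arrays. Without the library labelled XX Ctr replicate 2, 11 members in place of 14 were called between XY Ctr and XX Ctr, where 36.3% of all genes were called. In XX Ctnnb1KO against XX Ctr there were 3 in place of 4 (8.49% of all genes), and in XX DKO against XX Ctr 6 in place of 7 (11% of all genes). For sex by Sox9 loss there were 7 in place of 8 (22.6% of all genes). Other counts of member calls against XX Ctr were as with that library. The counts of 11 and 6 each include a member not called in the full fit. Calls of members that ended without either library are named beside their results, while group means, summed signals and shares over all genes include both libraries unless stated.

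The labelled tissue contained endothelium on every array by these markers. Of the 35 members, 25 had a signal above their array's median on all 31 arrays. The members Dll4 and Lyve1 were below it on every array: Dll4, a Notch ligand of arterial tip cells, with group means between 50.8 and 78.6, and Lyve1, a hyaluronan receptor of lymphatic vessels and some macrophages, with group means between 27.6 and 47.3. These 2 did not pass the filter, which asked for a signal above the array median on at least 3 arrays, and the remaining 33 were tested among 11777 genes. Group means of 3 of the 33 spanned a wide range: the highest group mean was 4.4 times the lowest for Gja5, 4.31 times for Vwf (von Willebrand factor, which anchors platelets) and 3.0 times for Stab2. For the other 30 the ratio was between 1.19 and 1.69. An F-test in limma over the 8 groups called 16 of the 33 at an adjusted p under 0.05, which is 48.5%, where 55.1% of all genes tested were called. As a list, then, endothelial genes varied among groups about as often as other genes did, and the large changes were in 3 of them.

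Gja5 was above the array median on 8 arrays only, the 4 of XY Ctr and the 4 of XY Ctnnb1KO, so it entered the test through the groups where it was high and had to differ between groups. Its calls and p-values in comparisons with those groups are therefore description, and add no support for a difference of arterial genes. Vwf was above the median on 17 arrays and Stab2 on 19, spread over 6 and 7 of the groups.

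In control gonads, Vwf and, of 6 arterial genes tested, Nrp1 and Efnb2 were called higher in XY than in XX, and Stab2 was called lower. The arterial Gja5, which passed the filter only through XY Ctr and XY Ctnnb1KO, was called higher too. Gja5, the arterial connexin (chr3:97032402-97053634), had signals of 187.9, 203.5, 228.6 and 175.9 in XY Ctr and of 60.9, 48.3, 62.6 and 58.2 in XX Ctr. Every XY control array was above every XX control array. The difference was 1.55 ± 0.17 (SE) on the log2(signal + 16) scale, a 2.92-fold change on that scale, with an adjusted p of 1.62e-08 in limma. Adding 16 before the log understates the change of genes with a low signal, Gja5 among them. Vwf (chr6:125552948-125686679) had signals of 401.2, 335.3, 369.1 and 441.9 in XY Ctr against 134.4, 65.6, 112.2 and 110.6 in XX Ctr, again with no overlap. It was 1.75 ± 0.17 higher on the log2 scale (limma adjusted p = 1.43e-09). The samples are whole gonads, and a higher signal of any member can have several sources. More endothelial cells of a type, more RNA per cell and RNA of the same gene from other gonad cells cannot be told apart.

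Efnb2 and Nrp1, also arterial genes, were called higher in XY control gonads, at a smaller size. Efnb2, the ephrin ligand that marks arteries, had signals of 1398.4, 1396.9, 1267.5 and 1477.2 in XY Ctr and of 1317.4, 1119.2, 1063.8 and 1041.3 in XX Ctr. The groups overlapped by XX Ctr replicate 1, and the difference was 0.29 ± 0.08 on the log2 scale (limma adjusted p = 0.00547). Nrp1, a VEGF co-receptor, averaged 1359.4 ± 195.6 (SD, n = 4) in XY Ctr and 944.7 ± 191 in XX Ctr, a log2 difference of 0.53 ± 0.14 (limma adjusted p = 0.00311). The other 3 arterial genes tested were not called: Gja4, connexin 37, was at 0.36 (adjusted p = 0.0588), Sox17 at 0.21 and Notch4, an endothelial Notch receptor, at −0.06.

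Stab2 was the member that ran the other way. Its signals were 89.1, 74.7, 74.9 and 69.6 in XY Ctr and 142, 132.9, 219.6 and 126.2 in XX Ctr, so every XY control array lay below every XX control array. The log2 difference was −0.85 ± 0.17 (limma adjusted p = 0.000208). The other sinusoidal and lymphatic genes did not share that direction. Stab1, which marks sinusoids and also macrophages, was higher in XY by 0.36, and Flt4, the VEGF-C receptor of lymphatic vessels, was higher by 0.45. Summed over the 4 genes of the sinusoidal and lymphatic list, signals ran from 887.4 to 1079.3 in XY Ctr and from 793.4 to 894.9 in XX Ctr, so the sum hid the opposite movement of Stab2. Red cell precursors are a possible other source of RNA in a whole gonad. Of 8 erythroid genes tested, Gata1 and Klf1 were called, both lower in XY Ctr like Stab2, at −1.87 and −1.71 on the log2 scale, while the summed signal of the 9 erythroid genes with a probe set overlapped (13765.9 to 22665.6 in XY Ctr, 18778 to 25196.9 in XX Ctr). Their part in the Stab2 result was not tested.

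Of the 13 surface and junction genes, 4 were called higher in XY Ctr: Vwf, Cdh5 (VE-cadherin, the adherens junction protein of endothelium) by 0.53 on the log2 scale, Eng (endoglin, a TGF-beta co-receptor) by 0.46 and Robo4 (a guidance receptor that stabilises vessels) by 0.32. Pecam1, the widely used endothelial adhesion molecule, was at −0.10 (limma adjusted p = 0.631). The summed signal of the 13 genes was nonetheless separate between the groups, at 7078.2 to 7985.9 in XY Ctr and 6126.6 to 6228.3 in XX Ctr. Of the 4 receptors, Flt1, a decoy for VEGF, was higher by 0.33, and Kdr, the main signalling receptor for VEGF, was at −0.39 without being called (adjusted p = 0.0747). Of the 3 transcription factors, Sox18 was higher by 0.55 and Sox7 by 0.47, and Erg was at 0.07. Among venous and capillary genes, Emcn was higher by 0.25, while Aplnr, the apelin receptor, at 0.22, and Ephb4, the venous receptor for ephrin-B2, at 0.04 were not called. The apelin gene Apln was at 0.11.

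Over the 33 members tested, 13 were called higher and 1 lower in XY Ctr than in XX Ctr, with a median log2 difference of 0.26. Among all genes tested 37.8% were called (18% higher and 19.8% lower), with a median of −0.02. The share of members called, 42.4%, was near that background, and it was the direction that was lopsided. The arrays of both groups did not overlap for 39.4% of the members and for 34.3% of all genes tested. The other probe sets of the called members had the same sign in 11 of 11 cases, and 7 of those were called too. Of the 14 calls, 8 (Cdh5, Efnb2, Flt4, Gja5, Nrp1, Sox18, Stab2 and Vwf) kept an adjusted p under 0.05 in limma under every alternative run. Leaving out 1 array ended the call for the other 6. For Emcn that was XX Ctr replicate 2 (0.21, limma adjusted p = 0.0731). For Eng it was XY Ctr replicate 1 (0.39, adjusted p = 0.0675 in limma). Robo4 was lost without XX Ctr replicate 2 (0.23) or XY Ctr replicate 1 or 4 (0.28 and 0.32). Sox7 was lost without XX Ctr replicate 3 (0.40) or XY Ctr replicate 2 (0.42). Stab1 was lost without XX Ctr replicate 2 (0.31) or XY Ctr replicate 3 or 4 (0.33 and 0.34). The Flt1 call ended on leaving out any of XX Ctr replicates 1 to 3 or XY Ctr replicates 1 to 3, with values from 0.28 to 0.34.

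**Figure D1:**
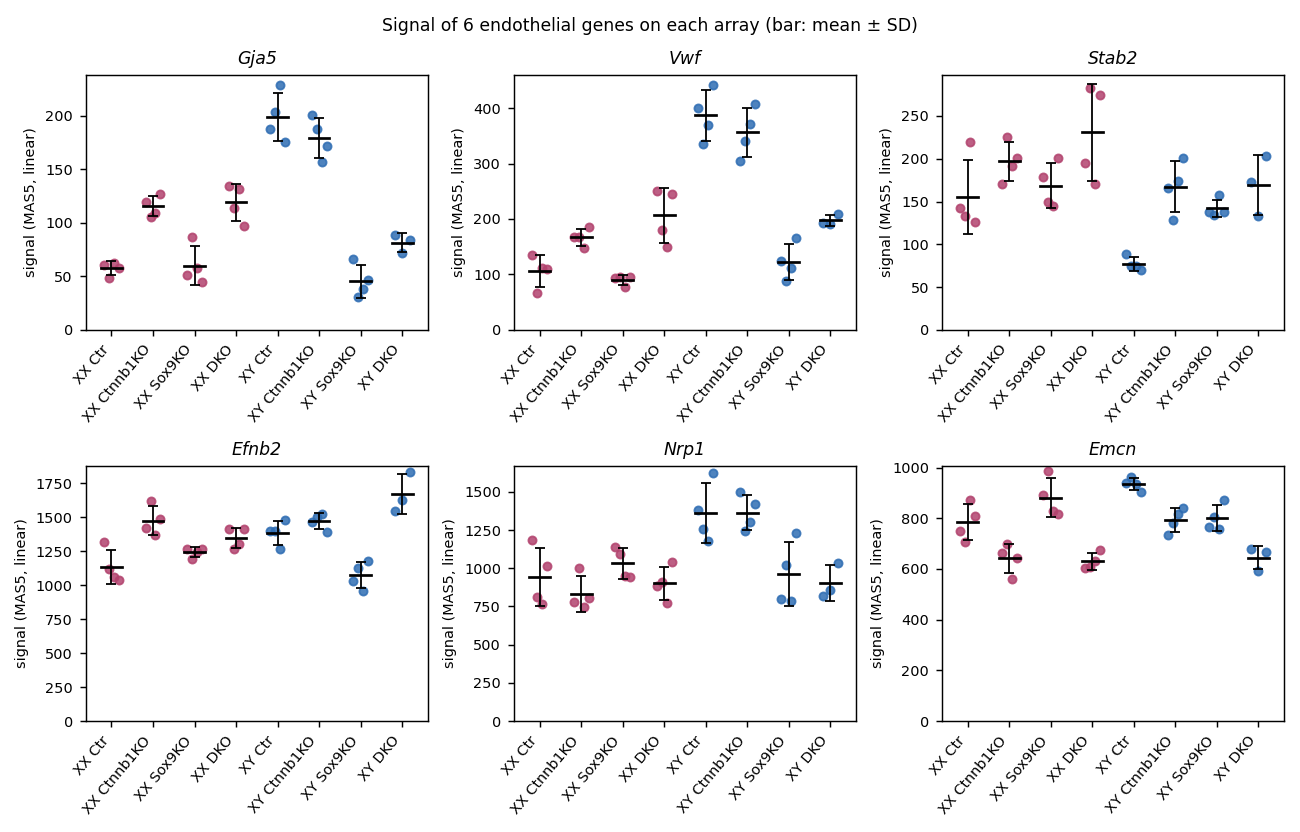
Linear array signal of Gja5, Vwf, Stab2, Efnb2, Nrp1 and Emcn (y axis) on each of the 31 arrays, by group (x axis). Points are arrays, bars are group means ± SD, XX groups are red and XY groups blue. Gja5 and Vwf are highest in XY Ctr and XY Ctnnb1KO and low in XY Sox9KO, and Stab2 is lowest in XY Ctr at 77.1 ± 8.4.

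Of 10 vascular ligand genes tested, 6 were called higher and 1 lower in XY Ctr: Cxcl12, a chemokine that attracts endothelial cells, was higher by 2.78 on the log2 scale, Vegfd by 1.94 and Pgf by 1.41, and Angpt2, an antagonist of the Tek receptor, was lower (−0.60). Vegfa, the principal VEGF ligand, was at 0.02 and was not called. Of 9 genes of Notch signalling and arteriovenous identity, 6 were higher, with Jag1, a Notch ligand, at 2.25 and its target Heyl at 2.15, while Jag2 was lower (−0.62). Of 10 genes of pericytes and smooth muscle, the cells that coat vessels, 8 were higher and none lower, led by Acta2 at 1.58 and Notch3 at 1.36, and their summed signal was 15241.1 to 16340.1 in XY Ctr against 6682.5 to 7961 in XX Ctr. Many of these genes are also made by other somatic cells of the gonad, Acta2 by peritubular cells and Jag1 by supporting cells, and their part in the endothelial differences was not tested. Genes of the mesonephric duct and tubules, tissue next to the gonad that carries vessels of its own, were summed over 4 genes. The sum was 2554.4 to 3841.1 in XX Ctr and 2398.3 to 3337.6 in XY Sox9KO. It was 1371.5 to 1695.9 in XY Ctr and 1244.5 to 1797.5 in XX Ctnnb1KO. Emx2 made up most of it, with a mean log2 value over all arrays of 10.685, against 6.982 for Pax8, 7.002 for Lhx1 and 5.677 for Gata3. The 3 tested genes of this list did not move together. The sum therefore mostly follows Emx2 and does not gauge how much mesonephros a sample held. Without the library labelled XX Ctr replicate 2, 1 was called higher and 1 lower in XY Ctr than in XX Ctr. Markers of the gonad's own cell types differed as well. Summed signals were 16546.1 to 19339.3 in XY Ctr and 412.1 to 740 in XX Ctr over 5 Sertoli genes, and 32849.3 to 37935.3 and 1406.9 to 2006.4 over 4 fetal Leydig genes. Over 4 pregranulosa genes they were 223.8 to 241.8 in XY Ctr and 6913.4 to 7582.6 in XX Ctr. The part of none of these was tested. A second set of 16 endothelial genes that are not members gave 0 higher and 3 lower (Gata2 at −2.20, Lyl1 at −0.87 and Tspan18 at −0.45).

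In XX gonads, loss of Ctnnb1 was accompanied by higher Gja5, Vwf and Efnb2 and lower Emcn. Gja5 had signals of 119.3, 105.8, 109.6 and 126.7 in XX Ctnnb1KO, all above the highest XX Ctr array at 62.6, and was higher by 0.84 ± 0.17 on the log2 scale (limma adjusted p = 0.000918). The group mean of 115.4 ± 9.5 was still below the XY Ctr mean of 199 ± 22.8. Efnb2 had signals of 1423.2, 1618.5, 1368.5 and 1490.8, above all 4 XX Ctr arrays, and was higher by 0.38 ± 0.08 (limma adjusted p = 0.00149). Vwf, at 166.6, 167.4, 148 and 185.4, was higher by 0.62 ± 0.17 (limma adjusted p = 0.0177). Emcn, at 664.8, 698.8, 562 and 641.6, lay below all 4 XX Ctr arrays, whose lowest signal was 707.2, and was lower by 0.28 on the log2 scale (a difference of −0.28 ± 0.08, limma adjusted p = 0.0243). So 3 members were called higher and 1 lower of 33, with a median of −0.03, against 10.1% of all genes called in this comparison (4.81% higher and 5.32% lower). Without the library labelled XX Ctnnb1KO replicate 4, Gja5 (0.80) and Efnb2 (0.37) were still called, and Vwf (0.57, limma adjusted p = 0.0619) and Emcn (−0.29, limma adjusted p = 0.0518) were not, where 8.18% of all genes were called. Vwf was also lost without XX Ctr replicate 2 (0.44), and Emcn without XX Ctr replicate 3 or 4 (−0.23 and −0.27) or XX Ctnnb1KO replicate 3 (−0.22).

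Loss of both genes in XX gonads gave calls in the same directions for Gja5, Vwf, Efnb2 and Emcn, against the same XX Ctr arrays, and also for Stab1, Stab2 and Pecam1. Gja5 was at 134.4, 113.5, 131.6 and 97.3 in XX DKO and Vwf at 250.6, 180.3, 149.8 and 245.1, both without overlap with XX Ctr. On the log2 scale each was higher by 0.88 ± 0.17, with limma adjusted p = 0.00054 for Gja5 and 0.000563 for Vwf. Emcn averaged 629.8 ± 32.7 (SD, n = 4) against 784.7 ± 71 in XX Ctr, lower by 0.31 (−0.31 ± 0.08, limma adjusted p = 0.0118), and Efnb2 was higher by 0.25. Stab1 had signals of 472, 568.1, 495.2 and 440.3, all above the XX Ctr arrays at 309.2 to 394, a log2 difference of 0.48 ± 0.12 (limma adjusted p = 0.00807). Stab2 rose by 0.53 and Pecam1 by 0.42, the latter with limma adjusted p = 0.049. In all, 6 members were higher and 1 lower, with a median of 0.08, where 12.9% of all genes were called (7.29% higher and 5.61% lower).

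The calls in XX DKO were not all equally firm. Gja5, Vwf and Stab1 kept theirs under every alternative run. Emcn was lost without XX Ctr replicate 3 (−0.26, limma adjusted p = 0.059). Efnb2 was lost on leaving out any of 6 arrays, XX Ctr replicates 2, 3 and 4 and XX DKO replicates 1, 3 and 4, with values from 0.21 to 0.26. Pecam1 was lost on leaving out any of 5, XX Ctr replicates 1 and 3 and XX DKO replicates 2, 3 and 4, with values from 0.33 to 0.44. For Stab2 the 5 arrays were XX Ctr replicates 1, 2 and 4 and XX DKO replicates 2 and 4, with values from 0.43 to 0.50.

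In XX DKO, macrophage genes were higher beside the Stab1, Stab2 and Pecam1 results, and macrophages can express Stab1 and Pecam1. Of 12 macrophage and leukocyte genes tested, 8 were called higher in XX DKO than in XX Ctr and none lower, with a median of 0.75, Tyrobp, C1qb, C1qc and Csf1r among them. The summed signal of the 14 genes of the list was 7458.5 to 9058.6 in XX DKO and 3413.3 to 6057.5 in XX Ctr. In XX Ctnnb1KO, 6 of the 12 were higher and the sum was 5561.9 to 10098.2, while Stab1, Stab2 and Pecam1 were not called. Adgre1, whose group means were 52.8 to 100.9, and Cd14, at 3.7 to 18.1, were near the bottom of the scale in every group. Without the library labelled XX Ctnnb1KO replicate 4, 6 of the 12 were again higher there, and that library's own sum was 6452.3. Fetal germ cells also express Pecam1. Of 4 germ cell genes, 2 were called higher in XX DKO than in XX Ctr and none lower, with a median of 0.71 on the log2 scale, and their summed signal was 14246.1 to 19629.2 against 6582.6 to 13186.6, without overlap. In XY gonads the pattern differed by genotype. Stab2 was called higher in XY Ctnnb1KO and XY Sox9KO, where no macrophage gene was called. In XY DKO, macrophage genes and Stab2 were called higher, and Stab1 and Pecam1 were not called. The part of macrophages and germ cells in the 3 endothelial results of XX DKO was not tested.

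Loss of Sox9 alone in XX gonads moved no endothelial gene past the threshold. In XX Sox9KO, 0 of 33 members were called in limma, 0 had an unadjusted p under 0.05, and 0 of all 11777 genes were called (0%), with 537 genes at an unadjusted p under 0.05. The members' median was 0.11 and single values ran from −0.17 for Pecam1 to 0.28 for Sox7. Gja5 signals of 51.6, 86.8, 57.4 and 44.3 spread around the XX Ctr mean of 57.5 ± 6.4, at 0.02 ± 0.17 on the log2 scale. Vwf, at 92.6, 95.4, 76.7 and 94.5, lay within the range of XX Ctr, at −0.17 ± 0.17. Intervals of that width leave room for differences as large as several of those called elsewhere, such as the 0.25 of Emcn. The library labelled XX Ctr replicate 2, with Sox9 inside the knockout range, is part of this comparison. Without it, 0 members and 0.00849% of all genes were called. That was 1 gene, called lower, from the Sertoli list.

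In XY gonads, loss of Ctnnb1 was accompanied by 1 called endothelial change, in Stab2. Its signals were 165.4, 128.4, 174.5 and 201.1 in XY Ctnnb1KO against 69.6 to 89.1 in XY Ctr, without overlap. The log2 difference was 0.97 ± 0.17 with a limma adjusted p of 0.00895. It was the only gene of the 11777 called higher in this comparison, a share of 0.00849%, while 0.0679% of all genes were called in either direction. The call was lost without XY Ctnnb1KO replicate 4 (0.88, limma adjusted p = 0.0777) and in a fit of these 8 arrays alone (0.97, adjusted p = 0.0991 in limma). Gja5 at 200.7, 187.5, 157.2 and 171.6 and Vwf at 305.4, 340.6, 371.5 and 408.3 overlapped with their XY Ctr ranges. Over the other 32 members tested the values ran from −0.27 for Sox7 to 0.19 for Notch4. No gene of the ligand, Notch, mural, macrophage or erythroid lists was called. The erythroid genes had a median of 0.73, with Gata1 at 153.8 ± 125.7 (SD, n = 4) against 55 ± 15.3 in XY Ctr, and their part in the Stab2 value was not tested.

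In XY gonads without Sox9, Vwf and, of 6 arterial genes tested, Efnb2 and Nrp1 were called lower than in XY Ctr, and Stab2 was called higher. The arterial Gja5, which passed the filter only through XY Ctr and XY Ctnnb1KO, was called lower too. The other arterial genes were not called, with Gja4 at −0.05, Sox17 at −0.04 and Notch4 at 0.13 on the log2 scale. Gja5 had signals of 65.7, 30.8, 38 and 46.2 in XY Sox9KO, far below the XY Ctr range of 175.9 to 228.6. It was lower by 1.84 on the log2 scale (−1.84 ± 0.17, limma adjusted p = 4.71e-10). Vwf, at 124, 87.6, 110.8 and 164.8 against 335.3 to 441.9, was lower by 1.57 (−1.57 ± 0.17, limma adjusted p = 1.37e-08). For both genes the 2 groups did not overlap. Efnb2 had signals of 1035.1, 1124.3, 960.1 and 1182.5, below every XY Ctr array, and was lower by 0.36 (−0.36 ± 0.08, limma adjusted p = 0.00066). Nrp1 was lower by 0.51 (−0.51 ± 0.14), with 1 XY Sox9KO array, replicate 4 at 1231.2, inside the XY Ctr range. Stab2, at 137.8, 134.3, 157.4 and 137.9, lay above every XY Ctr array and was higher by 0.76 ± 0.17 (limma adjusted p = 0.000746).

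Flt1 (−0.36) and Emcn (−0.22) made up the rest of the calls in XY Sox9KO, which were 1 higher and 6 lower of 33. That is 21.2% of the members, with a median of −0.10, against 38.7% of all genes called (22.7% higher and 16% lower), with a median of 0.05. Pan-endothelial genes apart from Vwf were not called: the 12 others include Pecam1, Eng and Plvap, and Vwf was the 1 called of 13. The Cdh5 probe set used here was at −0.29 and not called, while its other probe set was at −0.52 (limma adjusted p = 0.000744). The Flt1 call was lost without XY Ctr replicate 1 or 3 or XY Sox9KO replicate 1 (−0.31 to −0.34). The Emcn call was lost without any of XY Ctr replicates 1 to 3 or XY Sox9KO replicates 1 to 3 (−0.20 to −0.22).

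Lists of other cell types and signals moved beside these genes. Against XY Ctr, the summed signal in XY Sox9KO was lower over the Sertoli genes, at 451.2 to 774.5, and over the fetal Leydig genes, at 1948 to 2425.5, and higher over the pregranulosa genes, at 6967.5 to 7758.7. All 5 Sertoli and 4 fetal Leydig genes were called lower and all 4 pregranulosa genes higher. In XY Sox9KO, 9 of 10 pericyte and smooth muscle genes were lower than in XY Ctr, with Acta2 at −1.14, and their summed signal was 7521 to 9104.9. Of the ligands, 6 were lower, led by Cxcl12 at −2.62 and Vegfd at −2.11, and 2 higher. Jag1 (−2.20) and Heyl (−2.07) were among the 5 lower of 9 Notch and arteriovenous genes, and Jag2 was the 1 higher. Beside Stab2, Klf1 was higher by 2.21 and Gata1 by 1.58, and no macrophage gene was called. Of the 16 other endothelial genes, 5 were higher (Gata2 by 2.43 and Lyl1 by 1.19 among them) and Myct1 was lower (−0.42). None of these was tested as a cause of the members' values.

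XY gonads without both genes sat between XY Sox9KO and XY Ctr for Gja5 and Vwf. Gja5 had signals of 88.4, 71.4 and 84 in XY DKO, above every XY Sox9KO array and below every XY Ctr array. Against XY Ctr it was lower by 1.14 (−1.14 ± 0.19, limma adjusted p = 3.8e-05), and against XY Sox9KO it was higher by 0.70 ± 0.19 (limma adjusted p = 0.00717). Vwf, at 192.8, 190.6 and 209, was lower than in XY Ctr by 0.91 (−0.91 ± 0.19, limma adjusted p = 0.000738) and higher than in XY Sox9KO by 0.66 ± 0.19 (limma adjusted p = 0.0112). The range of XY Sox9KO, whose highest Vwf signal was 164.8, did not reach the XY DKO arrays. In a fit of the 7 arrays of both knockout groups alone, the difference in Gja5 (limma adjusted p = 0.118) and in Vwf (limma adjusted p = 0.0561) was not called.

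Other members of XY DKO did not sit between the 2 groups. Emcn, at 677.5, 592.4 and 665.7, was lower than in XY Ctr by 0.53 (−0.53 ± 0.09, limma adjusted p = 7.12e-05) and lower than in XY Sox9KO by 0.31 (−0.31 ± 0.09, limma adjusted p = 0.0143). Its 3 arrays lay below all arrays of both groups. The Emcn difference from XY Sox9KO was lost without XY Sox9KO replicate 4 (−0.26) or XY DKO replicate 3 (−0.25). Efnb2, at 1548.7, 1631.7 and 1835.9, was higher than in XY Sox9KO by 0.63 ± 0.09 (limma adjusted p = 2.25e-06) and higher than in XY Ctr by 0.27 ± 0.09 (limma adjusted p = 0.0327). A second Efnb2 probe set, at 0.38, was also called against XY Ctr, but 2 others were at −0.22 and −0.16, so the direction of Efnb2 against XY Ctr depended on the probe set. Stab2, at 172.4, 132.8 and 202.7, was above every XY Ctr array and higher by 0.98 ± 0.19 (limma adjusted p = 0.000283).

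Against XY Ctr, 2 members were higher and 7 lower of 33 in XY DKO, with a median of −0.19, where 17.2% of all genes were called (9.62% higher and 7.61% lower) with a median of 0.04. The arrays of both groups did not overlap for 33.3% of the members and for 25.5% of all genes tested. The other lower members were Flt1 (−0.59), Nrp1 (−0.58), Flt4 (−0.54) and Robo4 (−0.40). Flt4 was lost without XY DKO replicate 2 (−0.31, limma adjusted p = 0.143), whose Flt4 signal of 200.3 stood apart from 315.6 and 342.7. Robo4 was lost without XY Ctr replicate 1 (−0.36) or XY DKO replicate 2 or 3 (−0.31 and −0.39), and Efnb2 without XY Ctr replicate 1, 2 or 3 or XY DKO replicate 3 or 4 (0.20 to 0.28). Against XY Sox9KO, 3 members were higher and 1 lower, where 21.8% of all genes were called (11.1% higher and 10.8% lower). In XY DKO, 7 of 12 macrophage genes were higher than in XY Ctr and the summed signal was 8247.4 to 10262.6 against 4220.5 to 5521.1. Klf1 and Gata1 were each higher by 1.48, and 6 of 10 mural genes were lower. The part of those cells in the members' values was not tested.

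**Figure D2:**
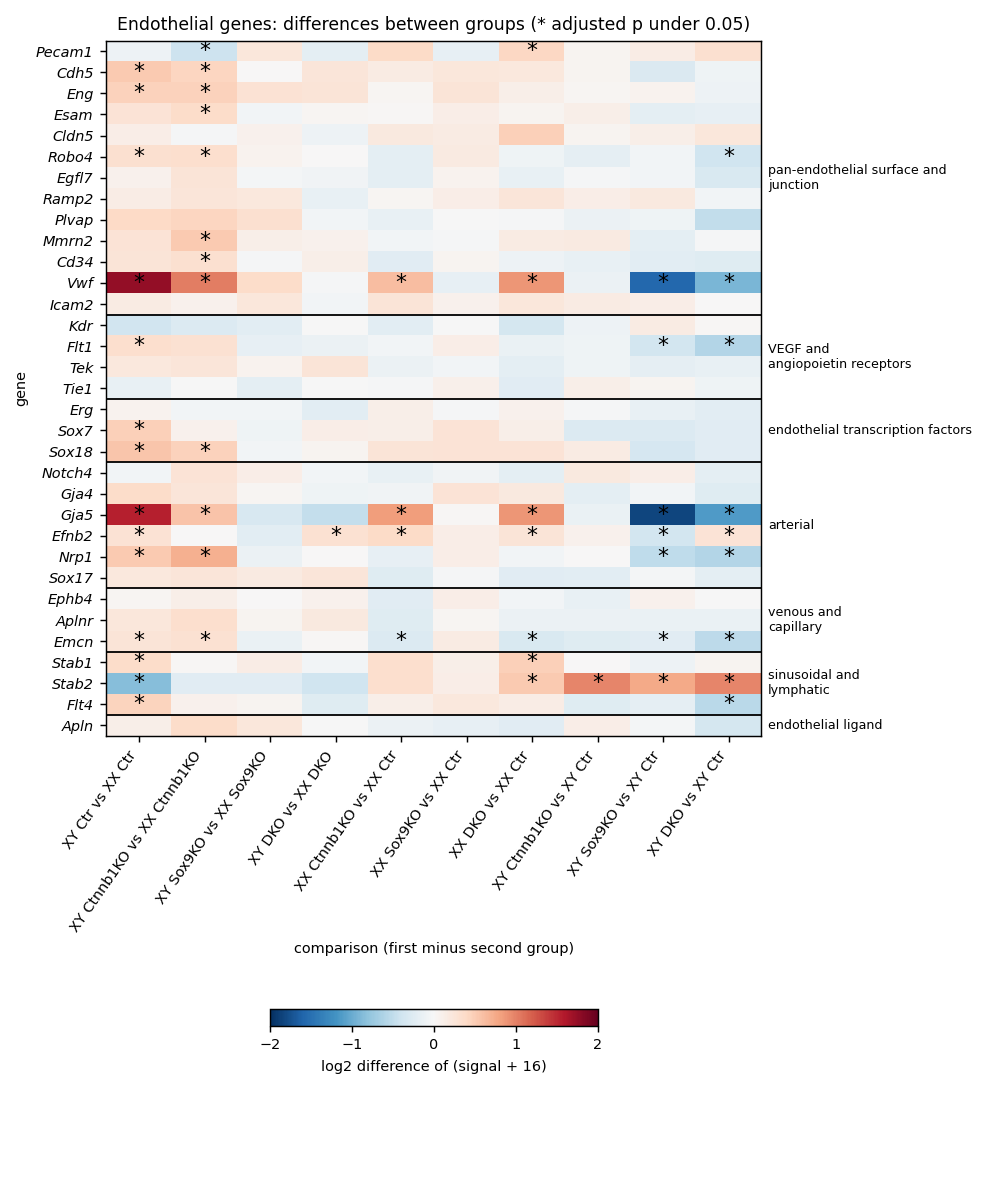
Log2 difference of (signal + 16), as colour, for the 33 endothelial genes tested (rows, by role) in 10 comparisons (columns, first minus second group). Asterisks mark an adjusted p under 0.05 in limma. Gja5 and Vwf carry the deepest colours in both directions, Stab2 is red in 3 XY knockout columns, and XX Sox9KO against XX Ctr has no asterisk.

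Set out by sex within each genotype, the share of members called followed the share of all genes called: 42.4% and 37.8% in Ctr, 36.4% and 32.5% in Ctnnb1KO, 0% and 0.11% in Sox9KO, and 3.03% and 5.22% in DKO. In Ctnnb1KO, 11 members were called higher and 1 lower in XY than in XX, with a median of 0.26, and 32.5% of all genes were called (16% higher and 16.5% lower). Vwf (1.02), Nrp1 (0.71), Gja5 (0.57), Mmrn2 (0.52, an extracellular matrix protein of endothelium), Eng (0.46), Sox18 (0.46) and Cdh5 (0.43) led the list. Esam (0.36), Robo4 (0.34), Cd34 (0.32) and Emcn (0.30) followed, and Pecam1 was lower (−0.41). Without the library labelled XX Ctnnb1KO replicate 4, 9 members and 29.9% of all genes were called, Vwf at 1.07, Nrp1 at 0.70 and Gja5 at 0.61 among the members. The losses were Pecam1 (−0.30, limma adjusted p = 0.13), Esam (0.36, limma adjusted p = 0.0526) and Sox18 (0.41, limma adjusted p = 0.0505). Leaving out 1 of the other 7 arrays ended calls too: Cd34 without XX replicate 1 or 3 or XY replicate 1 or 2 (0.27 to 0.29), Cdh5 without XX replicate 3 (0.31), Eng without XX replicate 3 or XY replicate 1 or 4 (0.33 to 0.43), Esam without XX replicate 3 or XY replicate 1 or 3 (0.31 to 0.35), Pecam1 without XY replicate 3 or 4 (−0.39 and −0.34), Robo4 without XX replicate 1 or XY replicate 2 (0.32 and 0.28) and Sox18 without XY replicate 1 (0.35).

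In Sox9KO, 0 of 33 members were called in limma between XY and XX gonads. Efnb2, at −0.21, was the 1 member with an unadjusted p under 0.05. The median was 0.04, and 0.11% of all genes were called (0.0849% higher and 0.0255% lower). This comparison was chosen after its values were seen. Vwf was at 0.36 ± 0.17 and Gja5 at −0.32 ± 0.17. Such wide intervals do not exclude differences of the size of some calls elsewhere. Against XX Ctr, XY Sox9KO likewise had 0 members called, with 6 at an unadjusted p under 0.05 (Eng at 0.54 and Stab1 at 0.27 among them), where 0.628% of all genes were called (0.442% higher and 0.187% lower). In DKO, Efnb2 was the 1 member called of 33, higher in XY by 0.30 ± 0.09 (limma adjusted p = 0.0373), where 5.22% of all genes were called (3.45% higher and 1.77% lower). That call ended without XX DKO replicate 2 (0.27) or 3 (0.29) or XY DKO replicate 3 (0.32) or 4 (0.24), and 2 other Efnb2 probe sets were at −0.04 and −0.37.

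The change of the sex difference with genotype was tested directly. With loss of Sox9 the interaction term was called negative for 8 members and positive for none, where 23.3% of all genes were called (12.7% positive and 10.7% negative). All 8 were called higher in XY Ctr than in XX Ctr, so a negative term means a lower XY minus XX value in Sox9KO. That value was smaller in size for all 8. For some, Gja5 and Efnb2 among them, it turned negative without being called. For a gene lower in XY Ctr, a positive term can also mean a smaller difference. The shares over all genes therefore do not tell how many sex differences shrank. The 8 were Gja5 (−1.86 ± 0.24, limma adjusted p = 7.03e-07), Vwf (−1.40 ± 0.25, limma adjusted p = 6.56e-05), Nrp1 (−0.65), Sox18 (−0.62), Cdh5 (−0.53), Efnb2 (−0.50), Flt1 (−0.50) and Emcn (−0.39). Of the 8, Efnb2 and Nrp1 are arterial genes, as is Gja5, which passed the filter only through XY Ctr and XY Ctnnb1KO. Cdh5, Sox18 and Flt1 lost their call on leaving out single arrays. For Cdh5 these were XX Ctr replicate 1, XX Sox9KO replicate 1, XY Ctr replicates 3 and 4 and XY Sox9KO replicate 1 (−0.44 to −0.50). For Sox18 they were XX Ctr replicate 1, XX Sox9KO replicates 1 and 2, XY Ctr replicate 1 and XY Sox9KO replicates 1 and 2 (−0.52 to −0.59). For Flt1 they were XX Ctr replicates 1 to 3, XX Sox9KO replicates 2 and 4, XY Ctr replicates 1 and 3 and XY Sox9KO replicates 1 and 3 (−0.44 to −0.50).

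With loss of Ctnnb1 the interaction term was called for Gja5 alone among the members, and was negative (−0.98 ± 0.24, limma adjusted p = 0.0146), where 4.19% of all genes were called (2.45% positive and 1.75% negative). Without the library labelled XX Ctnnb1KO replicate 4 the value was −0.94 and was still called. Gja5 passed the filter only through XY Ctr and XY Ctnnb1KO, which both enter this term, so its call is description. With loss of both genes the term was negative and called for Gja5 (−2.02 ± 0.25, limma adjusted p = 8.03e-07), Vwf (−1.79 ± 0.26, limma adjusted p = 6.24e-06) and Flt4 (−0.69 ± 0.20, limma adjusted p = 0.0142), where 14.9% of all genes were called (7.89% positive and 7.04% negative). That interaction was also added after its values were seen, and the Flt4 call was lost without XY DKO replicate 2 (−0.47, adjusted p = 0.0833 in limma). These interactions share the control arrays with one another. XY Ctr thus enters the term for loss of both genes as well, and the Gja5 call there is also description.

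In XY gonads the effect of losing both genes was set against the sum of the separate effects. Gja5 (0.83 ± 0.25, limma adjusted p = 0.0329) and Efnb2 (0.54 ± 0.12, limma adjusted p = 0.00247) were higher in XY DKO than that sum, and 9.75% of all genes were called (5.27% higher and 4.47% lower). Efnb2 had 3 other probe sets, of which only 2 had the same sign as the value given, and these 2 were called. The Gja5 value moved between 0.72 and 0.98 on leaving out single arrays. Its call ended without XY Ctr replicate 2 or 3, XY Ctnnb1KO replicate 3 or 4, XY Sox9KO replicate 2 or 3 or XY DKO replicate 2 or 4 (0.72 to 0.82). Both groups through which Gja5 passed the filter, XY Ctr and XY Ctnnb1KO, enter this term, so its call is description.

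**Figure D3:**
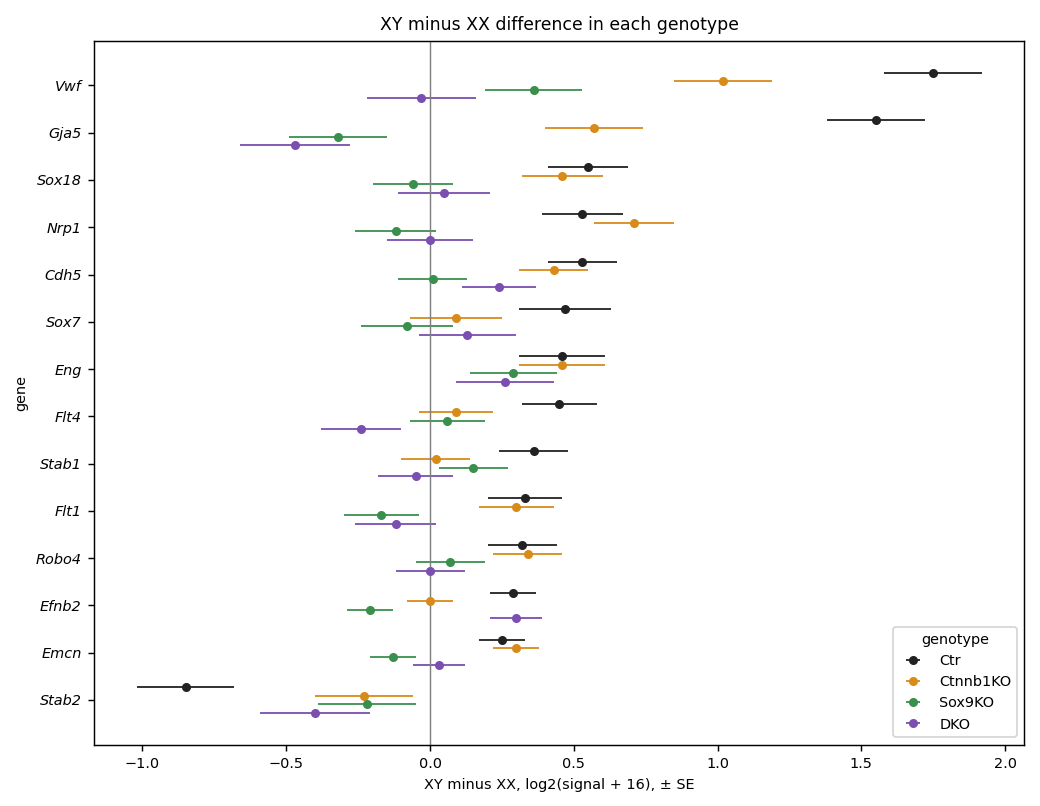
XY minus XX difference in log2(signal + 16) (x axis, points ± SE from the limma fit) in each of the 4 genotypes for the 14 members called between XY Ctr and XX Ctr (y axis). The black control points lie right of 0 for 13 genes and left of 0 for Stab2, and the green Sox9KO points lie closer to 0 than the control points for all 14. The genes were chosen by their control difference, and that choice alone favours control points far from 0.

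Gja5, Emcn and Stab2 had different orders of the group levels, and other genes of the same vessel types did not all follow them. For the arterial Gja5, means ran from 45.2 in XY Sox9KO, 57.5 in XX Ctr and 60 in XX Sox9KO through 81.3 in XY DKO to 115.4 in XX Ctnnb1KO and 119.2 in XX DKO, and then to 179.3 in XY Ctnnb1KO and 199 in XY Ctr. The lowest 3 overlapped with one another, XX Sox9KO replicate 2 at 86.8 reached into the XY DKO range, and XX Ctnnb1KO overlapped with XX DKO and XY Ctnnb1KO with XY Ctr. Vwf had the same 2 groups at the top, at 356.5 in XY Ctnnb1KO and 386.9 in XY Ctr. For the venous and capillary Emcn, the lowest means were 629.8 in XX DKO, 641.8 in XX Ctnnb1KO and 645.2 in XY DKO, and these 3 overlapped. The highest were 880.8 in XX Sox9KO and 935.5 in XY Ctr. For the sinusoidal Stab2, XY Ctr at 77.1 stood below all 7 other groups, whose means lay between 141.9 in XY Sox9KO and 231 in XX DKO. Of the other arterial genes, Efnb2 had its highest group mean in XY DKO (1672.1), and Nrp1 had its lowest in XX Ctnnb1KO (832) and its highest in XY Ctnnb1KO (1364.5). Of the other sinusoidal and lymphatic genes, Stab1 was lowest in XX Ctr (350.3), and Flt4 was highest in XY Ctr (414.4). Of the other venous genes, Ephb4 had group means between 1013 and 1296.3 and Aplnr between 3372 and 4643, and neither was called in any comparison.

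**Figure D4:**
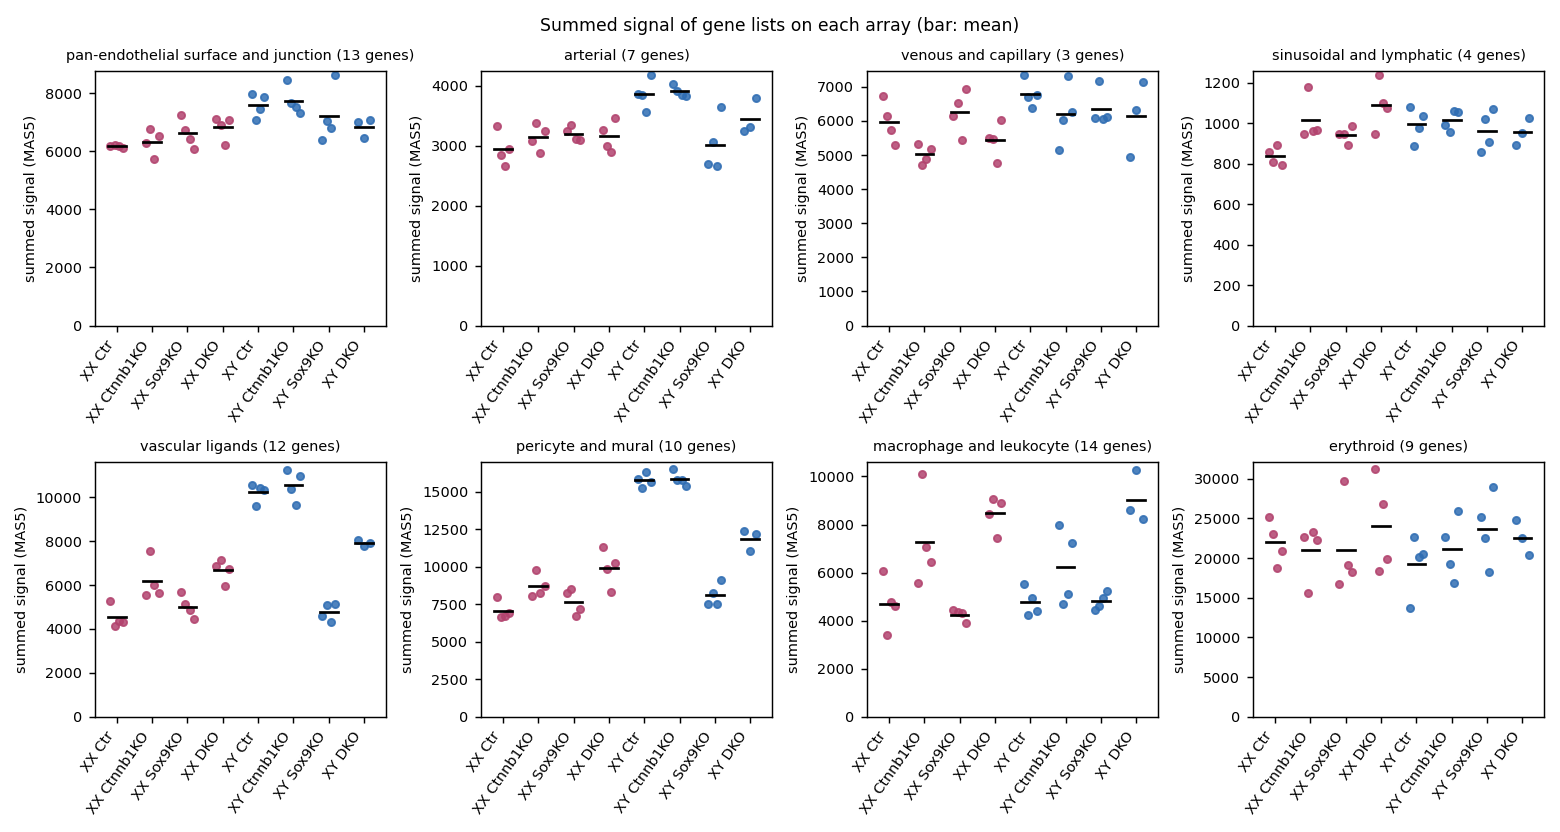
Summed linear signal (y axis) of 8 gene lists on each array, by group (x axis), with bars at the group means. The pericyte and mural sum is 15241.1 to 16340.1 in XY Ctr and 6682.5 to 7961 in XX Ctr, while the macrophage and leukocyte sum is highest in XX DKO and XY DKO.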

How the data were processed

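Gene expression was measured on 31 arrays from E14.5 gonads in 8 groups. The authors deposited linear intensities, for which the submitters' processing notes name MAS5 without a version. Each array has a trimmed mean of 500 (2% off each end). From them, log2(signal + 16) was computed. Of 45101 probe sets, 34945 had 1 symbol, and 1 probe set per gene was kept by highest mean. Genes above their array's median on at least 3 arrays (11777) were tested in limma 3.58.1 (R 4.3.3) with 8 group means, contrasts, a moderated variance with a trend and Benjamini-Hochberg adjustment over all genes of a comparison, and called means an adjusted p below 0.05. Replicates were separate pairs of gonads. The number of arrays limits the precision: on simulated data for XY Ctr against XX Ctr with 11777 genes, the fit recovered 40% of genes changed 1.25-fold and 98% changed 2-fold. Only 50 genes were changed at each fold there, where 37.8% of genes were called in the data. The adjustment for multiple tests was therefore stricter in the simulation, and its recovery is not that of the real comparison. The members and lists were chosen with earlier results of these data known. Every called member could be named, with uncalled members where a role had no value, and up to 4 called genes per accompanying list. The alternatives run were a pseudocount of 1 or of 64, quantile normalization, dropping the filter, the replicate number as a block, the mean of a gene's probe sets, only the arrays compared, and each array left out.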

Additional observations from a re-analysis of the deposited data

Results flagged for a closer look

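Among the 35 members in the 7 groups of 4 arrays, 18 of 245 combinations had 1 array set apart from the other 3 by Dixon's criterion, where chance sets apart about 1 in 20. Pan-endothelial and junction genes gave 7. Cdh5 was 1080.6 in XX Sox9KO replicate 1 (others 840.7 to 873.2), Eng was 968.8 in XY Sox9KO replicate 4 (528.6 to 539.3), Egfl7 was 969.1 in XX Ctr replicate 4 (1058.9 to 1076) and Mmrn2 was 312 in XX Ctr replicate 1 (233.1 to 234). Cd34 was 423.5 in XX DKO replicate 3 (547 to 565.8), Vwf was 76.7 in XX Sox9KO replicate 3 (92.6 to 95.4) and Icam2 was 195 in XX Sox9KO replicate 2 (231.7 to 233.2). Of the receptors, Flt1 was 369.5 in XY Ctnnb1KO replicate 1 (282.5 to 293.5), Tek was 376 in XX Ctr replicate 1 (432.9 to 436.1) and Tie1 was 186.7 in XY Ctnnb1KO replicate 2 (141.2 to 148.1). Of the arterial genes, Notch4 was 304.4 in XX Ctnnb1KO replicate 4 (191.6 to 200.5), the library that lacks Xist signal, and 204.6 in XY Ctr replicate 2 (242.2 to 245.5), and Gja4 was 223.7 in XX Sox9KO replicate 1 (285 to 295.7). Of the sinusoidal and lymphatic genes, Stab2 was 157.4 in XY Sox9KO replicate 3 (134.3 to 137.9) and Flt4 was 328.1 in XX Sox9KO replicate 1 (352.7 to 354.3). Lyve1, below the array median throughout, was 5 in XX DKO replicate 4 (32.5 to 37.1), 3.4 in XY Ctnnb1KO replicate 2 (53.1 to 69.5) and 6.7 in XY Sox9KO replicate 3 (36.1 to 40.3).

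The effect of a genotype differed between groups for 14 results by an interaction term in limma. Between the sexes, the effect of Ctnnb1 loss differed for Gja5 (−0.98). The effect of Sox9 loss differed between the sexes for Gja5 (−1.86), Vwf (−1.40), Nrp1 (−0.65), Sox18 (−0.62), Cdh5 (−0.53), Efnb2 (−0.50), Flt1 (−0.50) and Emcn (−0.39). The effect of losing both genes differed between the sexes for Gja5 (−2.02), Vwf (−1.79) and Flt4 (−0.69). In XY gonads, the effect of Sox9 loss differed with Ctnnb1 genotype for Gja5 (0.83) and Efnb2 (0.54). All the Gja5 terms include XY Ctr, a group through which Gja5 passed the filter, and are description.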

How the results depend on the processing

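Of 73 called member results, 39 kept their call in limma under every alternative run and 34 lost it under at least 1. Over the 1188 alternative values of these results, 0 reversed direction. Counts of members called moved by over 1.5 times as follows. With only the arrays of the comparison, XX Ctnnb1KO against XX Ctr gave 2 (4 in the full fit), XX DKO against XX Ctr 3 (7), XY Ctnnb1KO against XY Ctr 0 (1), XY DKO against XY Sox9KO 1 (4) and XY DKO against XX DKO 0 (1). XY DKO against XX DKO also gave 0 with quantile normalization and with the mean of a gene's probe sets. The interaction of Ctnnb1 and Sox9 loss in XY (2) gave 1 with quantile normalization and 4 with the mean of probe sets. Leaving out each array in turn, the counts ran from 11 to 18 for XY Ctr against XX Ctr, 2 to 5 for XX Ctnnb1KO, 0 to 0 for XX Sox9KO, 4 to 6 for XX DKO, 0 to 1 for XY Ctnnb1KO, 5 to 8 for XY Sox9KO, 7 to 10 for XY DKO against XY Ctr, 3 to 6 for XY DKO against XY Sox9KO, 0 to 1 for XY DKO against XX DKO, 0 to 0 for XY Sox9KO against XX Ctr, 8 to 13 for the sexes in Ctnnb1KO, 0 to 0 for the sexes in Sox9KO, 1 to 2 for sex by Ctnnb1 loss, 5 to 9 for sex by Sox9 loss, 2 to 4 for sex by loss of both genes, 1 to 3 for Ctnnb1 by Sox9 loss in XY and 14 to 18 for the F-test. Causes of these shifts were not tested. The fits restricted to a comparison hold fewer arrays and also estimate the spread from those arrays alone. With the replicate number as a block, sex by Ctnnb1 loss gave 2 calls in place of 1, Pecam1 in XX DKO was lost (limma adjusted p = 0.0623), and 72 of the 73 calls held. Same-numbered arrays shared only a number: their deviations correlated between −0.45 and 0.36 and no comparison had every value above 0.1. Signals near the bottom of the scale, as for Dll4 and Lyve1, limit what can be said of those genes.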
